A study of Arabidopsis thaliana with 40 samples.

Results

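The dark-inducible starvation marker genes are 8 Arabidopsis thaliana loci whose mRNAs are known to accumulate when a leaf or seedling runs short of sugar. They were chosen by locus name from a fixed list, and all 8 of 8 were found among the 33592 loci of the deposited count tables. The list was fixed with earlier results of these data known, so the direction of its members is not independent evidence. Their names are ASN1 (DIN6, AT3G47340), ERD5 (AT3G30775), SEN1 (DIN1, AT4G35770), BGLU30 (DIN2, AT3G60140), DIN9 (AT1G67070), DIN10 (AT5G20250), SIP2 (AT3G57520) and AT3G15450. All 8 passed the filter on low counts.

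The study asked how the kinase SnRK1 and the translation factor eIFiso4G1 shape mRNA levels and polysome loading under submergence. Whole seedlings, 9 days old, were either dark-treated for 3 h or submerged in darkness for the same time (3 h), so every control was dark-treated too and no lit sample was analysed here. Count tables covered 16 libraries in 8 groups of 2: wild-type Col-0 and the line labelled K48M, each dark or submerged, each as total RNA or as RNA of the heavy polysome fraction. K48M overexpresses SnRK1.1 (KIN10) K48M in Col-0, a form known to lack kinase activity, and it keeps the endogenous gene. The promoter of that transgene and the number of lines are not stated in the labels. Each group held 1 library named ST_FR and 1 named LTF_GG, described by the submitters as independent biological repeats, and these name sets are called library sets below. The i4g1-2 and 4A-15 lines enter through the authors' deposited table of fold changes.

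SnRK1 is a protein kinase that is active when sugar and energy are low, and it acts in part through bZIP transcription factors of groups C and S1. Dark-inducible (DIN) genes are classical readouts of this starvation programme, because darkness raises them and sugar feeding lowers them. Submergence limits oxygen and carbon supply, so seedlings in the dark under water meet both kinds of shortage.

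Libraries held 5264919 to 6768995 gene reads for total RNA and 3749306 to 5945943 for polysome RNA. Values are gene read counts scaled to a common library total after TMM (CPM), or CPM per kilobase of transcript (RPKM) where genes are compared. KIN10 checked the labels: it was 25.9 to 36.8 CPM in 8 Col-0 libraries and 232 to 1403 CPM in 6 K48M libraries. ADH1, an alcohol dehydrogenase induced by low oxygen, was 26.8 to 48.8 CPM in the dark and 1328 to 2723 CPM under water. The remaining 2 libraries, the LTF_GG pair of K48M total RNA, have sample titles and column headers that name opposite conditions. By header, ADH1 was 1323 CPM in the submerged and 29.6 CPM in the dark member of that pair. They were left out of the fit, their values are given below by header, and comparisons that use K48M total RNA are given with and without them. The ST_FR polysome library of dark Col-0 stood apart in ribosomal RNA, which took 38.1% of its gene reads against 0.874% to 14.6% elsewhere.

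The promoters of the 3 members that differed most between the library sets are shown, since that contrast comes back in the results. Each is the 250 bases before the annotated gene start, 5′ to 3′ on the gene's strand, from the RefSeq sequence of TAIR10.1. Capitals mark matches on either strand to ACTCAT (reverse complement ATGAGT), the hypoosmolarity-responsive motif known from ERD5, to the G-box core CACGTG, or to TATCCA, a motif known from sugar-repressed rice genes.
ASN1, chr3:17441432-17441681, minus strand: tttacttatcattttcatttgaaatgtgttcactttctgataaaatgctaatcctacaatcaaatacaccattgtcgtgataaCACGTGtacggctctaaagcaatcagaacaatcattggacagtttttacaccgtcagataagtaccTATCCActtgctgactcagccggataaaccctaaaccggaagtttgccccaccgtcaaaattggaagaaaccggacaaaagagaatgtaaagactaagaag
ERD5, chr3:12451557-12451806, minus strand: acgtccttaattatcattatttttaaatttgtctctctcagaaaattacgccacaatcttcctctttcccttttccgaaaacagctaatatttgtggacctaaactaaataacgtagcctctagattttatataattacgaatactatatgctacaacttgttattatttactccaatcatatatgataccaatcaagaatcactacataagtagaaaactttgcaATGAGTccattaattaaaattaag
SIP2, chr3:21293172-21293421, minus strand: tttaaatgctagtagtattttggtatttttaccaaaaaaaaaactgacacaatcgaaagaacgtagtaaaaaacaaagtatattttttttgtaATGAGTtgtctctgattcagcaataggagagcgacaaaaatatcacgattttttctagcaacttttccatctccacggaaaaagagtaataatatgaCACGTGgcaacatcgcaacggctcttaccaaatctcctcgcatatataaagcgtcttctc

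ACTCAT lay in 3 of the 8 promoters, those of DIN9, ERD5 and SIP2, against 12.31% of 27443 promoters of the same length. CACGTG lay in 2, those of ASN1 and SIP2, against 6.49%, and TATCCA in 1, that of ASN1, against 13.64%. In all, 4 of 8 windows held one of these motifs against 29.02% of all promoters. The windows of SEN1, BGLU30, DIN10 and AT3G15450 held none of the letters searched. The motifs do not overlap each other in these windows, and a match is a description of letters.

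The members differed widely in level. Per length, the median over 14 libraries was 1388 RPKM for AT3G15450, 1233 for SEN1, 359 for DIN10, 114 for ASN1, 110 for ERD5, 34.4 for SIP2, 1.46 for BGLU30 and 1.44 RPKM for DIN9. In 3 places of this order neighbours were not separated. AT3G15450 exceeded SEN1 in 5 of 14 libraries, ASN1 exceeded ERD5 in 3 of 14, and BGLU30 exceeded DIN9 in 10 of 14, whereas SEN1 exceeded DIN10, DIN10 exceeded ASN1, ERD5 exceeded SIP2 and SIP2 exceeded BGLU30 in 14 of 14.

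ASN1 encodes a glutamine-dependent asparagine synthetase, which stores nitrogen in a carbon-poor amide (chr3:17437840-17441431). In total RNA of Col-0 it was 58.6 CPM in the dark and 254 CPM submerged in the ST_FR set, and 489 CPM and 358 CPM in the LTF_GG set. In Col-0 polysomes the dark and submerged values were 27.5 and 146 CPM in ST_FR, and 485 and 467 CPM in LTF_GG. In K48M total RNA they were 49.0 and 251 CPM in ST_FR, and by header 298 and 599 CPM in LTF_GG, while K48M polysomes held 21.4 and 215 CPM in ST_FR and 256 and 416 CPM in LTF_GG. All 8 LTF_GG values lay above all 8 ST_FR values, and the 4 dark ST_FR libraries were the lowest.

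ERD5 encodes mitochondrial proline dehydrogenase, the first enzyme of proline breakdown (chr3:12448636-12451556). Its dark and submerged values in Col-0 total RNA were 61.4 and 232 CPM in ST_FR and 251 and 716 CPM in LTF_GG. In Col-0 polysomes they were 37.7 and 151 CPM in ST_FR and 228 and 568 CPM in LTF_GG. K48M total RNA held 71.4 and 297 CPM in ST_FR and, by header, 222 and 846 CPM in LTF_GG, and K48M polysomes held 29.2 and 182 CPM in ST_FR and 149 and 517 CPM in LTF_GG. Each submerged library was above its dark partner of the same set, yet the LTF_GG dark library of Col-0 total RNA was above the ST_FR submerged one.

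SEN1 encodes a protein of the rhodanese-like sulfurtransferase family and is a marker of dark-induced senescence (chr4:16944878-16946266). In Col-0 total RNA it was 471 and 952 CPM, dark and submerged, in ST_FR and 1043 and 960 CPM in LTF_GG. In Col-0 polysomes it was 1065 and 2538 CPM in ST_FR and 2258 and 2344 CPM in LTF_GG. K48M total RNA held 342 and 924 CPM in ST_FR and, by header, 737 and 1116 CPM in LTF_GG, with 1136 and 3392 CPM in ST_FR and 1576 and 2688 CPM in LTF_GG polysomes. SEN1 was the member in which submerged ST_FR libraries reached or passed the submerged LTF_GG ones, in both polysome groups.

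Another 3 members act on sugars. DIN10 belongs to the raffinose synthase family (chr5:6833564-6836862), SIP2 is known as a raffinose-specific alpha-galactosidase of the same family (chr3:21288742-21293171), and DIN9 is a phosphomannose isomerase (chr1:25041833-25044659). DIN10 in Col-0 total RNA was 276 and 937 CPM, dark and submerged, in ST_FR and 977 and 2443 CPM in LTF_GG, and in Col-0 polysomes 349 and 1461 CPM in ST_FR and 1052 and 2616 CPM in LTF_GG. In K48M it was 282 and 1012 CPM in ST_FR total RNA, 912 and 2022 CPM by header in LTF_GG total RNA, 351 and 1346 CPM in ST_FR polysomes and 886 and 2378 CPM in LTF_GG polysomes. Within each set, every submerged DIN10 library lay above every dark one.

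SIP2 was 40.7 and 61.4 CPM, dark and submerged, in ST_FR total RNA of Col-0 and 262 and 342 CPM in LTF_GG. The Col-0 polysome values were 47.0 and 89.2 CPM in ST_FR and 305 and 388 CPM in LTF_GG. K48M held 42.3 and 69.7 CPM in ST_FR total RNA, 172 and 299 CPM by header in LTF_GG total RNA, 42.2 and 99.8 CPM in ST_FR polysomes and 212 and 336 CPM in LTF_GG polysomes. As for ASN1, all 8 LTF_GG values were above all 8 ST_FR values, dark or submerged. DIN9 was scarce, with 1 to 60 reads per library. It was 1.49 and 2.57 CPM, dark and submerged, in ST_FR total RNA of Col-0, 2.53 and 7.20 CPM in LTF_GG, and 0.465 and 2.50 CPM in ST_FR polysomes against 1.50 and 4.74 CPM in LTF_GG. In K48M it was 0.976 and 3.11 CPM in ST_FR total RNA, 2.14 and 6.91 CPM by header in LTF_GG total RNA, 1.30 and 2.94 CPM in ST_FR polysomes and 1.26 and 8.05 CPM in LTF_GG polysomes. Each of its submerged libraries exceeded the dark partner of its set.

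BGLU30 is a beta-glucosidase (chr3:22216540-22220824) and, like DIN9, rested on few reads, 3 to 70 per library. In Col-0 it was 1.66 and 2.78 CPM, dark and submerged, in ST_FR total RNA, 5.06 and 8.40 CPM in LTF_GG total RNA, 1.40 and 2.85 CPM in ST_FR polysomes and 2.66 and 9.65 CPM in LTF_GG polysomes. In K48M it was 0.813 and 1.84 CPM in ST_FR total RNA, 2.92 and 6.91 CPM by header in LTF_GG total RNA, 1.30 and 3.78 CPM in ST_FR polysomes and 3.25 and 10.8 CPM in LTF_GG polysomes. Here too the submerged library was the higher of each pair.

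AT3G15450 belongs to the family of the aluminium-induced proteins and has no assigned biochemical role here (chr3:5212984-5214124). In Col-0 it was 348 and 744 CPM, dark and submerged, in ST_FR total RNA, 1292 and 1743 CPM in LTF_GG total RNA, 505 and 1408 CPM in ST_FR polysomes and 1637 and 2606 CPM in LTF_GG polysomes. In K48M it was 473 and 1318 CPM in ST_FR total RNA, 1602 and 1903 CPM by header in LTF_GG total RNA, 611 and 1362 CPM in ST_FR polysomes and 1335 and 2410 CPM in LTF_GG polysomes. The submerged library was the higher of every pair, and the dark LTF_GG level was close to the submerged ST_FR level or above it.

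**Figure D1:**
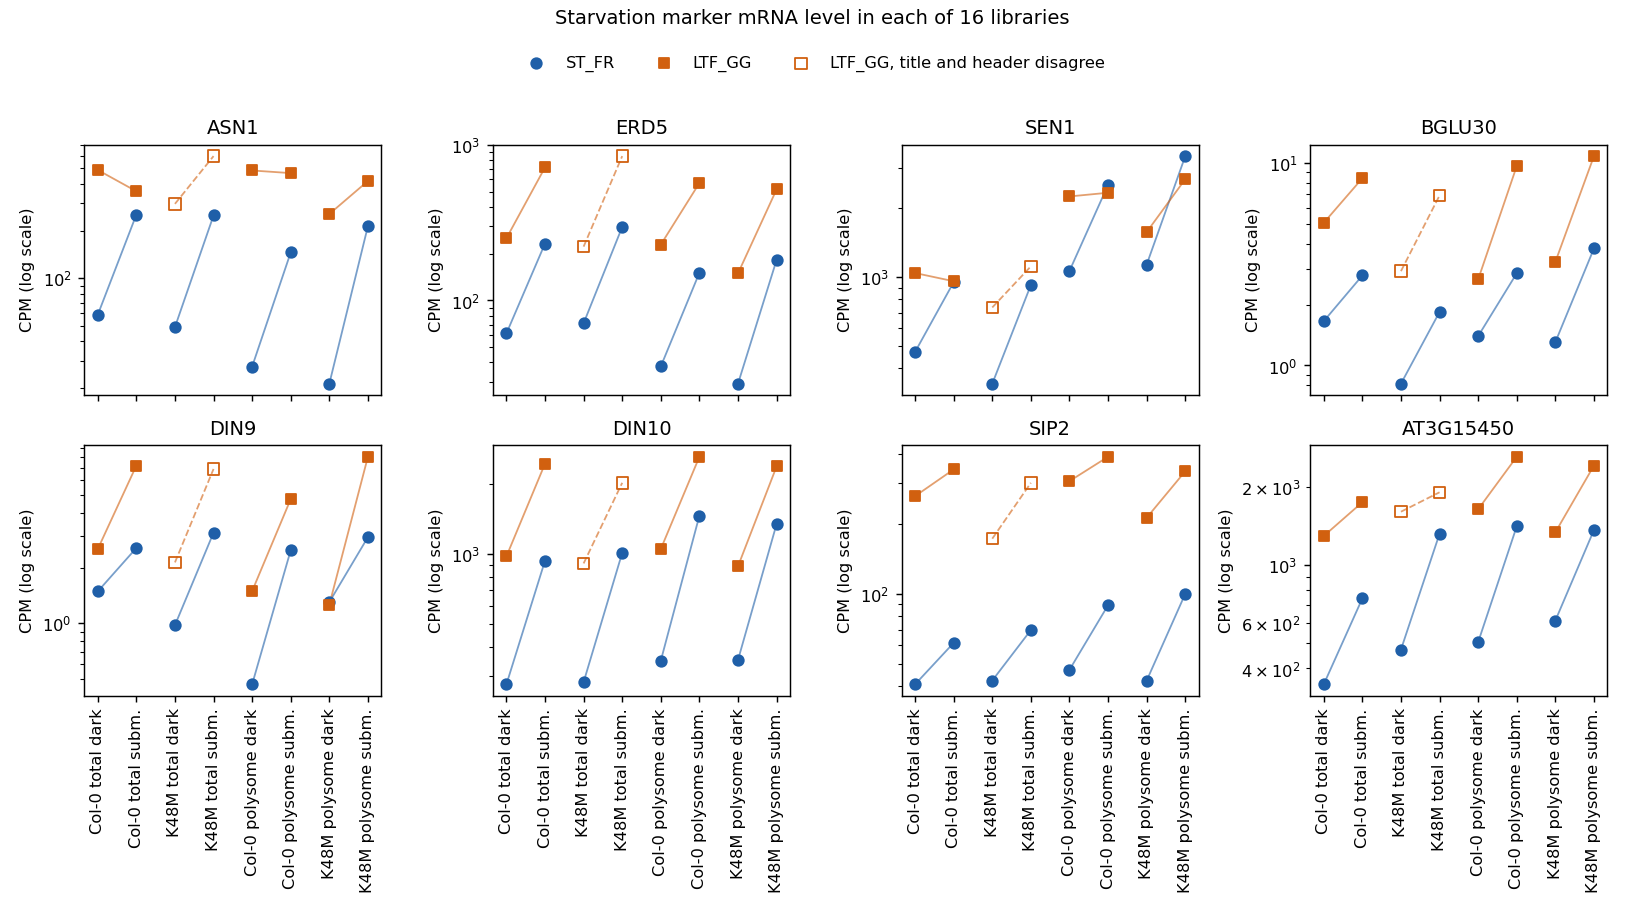
CPM of each member (log axis) in the 16 libraries, by group. Circles are ST_FR and squares LTF_GG libraries, lines join the dark and submerged library of a set, and open squares are the K48M pair whose titles and headers disagree, placed by header. Most lines slope upward from dark to submerged, and all squares lie above all circles for ASN1 and SIP2.

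Submergence was compared with darkness alone within each genotype and fraction, with edgeR's quasi-likelihood test over 19436 genes and the library set as a block. ERD5 and DIN10 rose in all 4 responses. The other members were higher on average in each response, but which of them passed the test varied, and no member was lower. In bulk RNA, fewer cells of a type and less RNA per cell cannot be told apart.

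In Col-0 total RNA, 2 of 8 members rose (adjusted p under 0.05), where 7.44% of all genes tested were called higher. ERD5 had a log2 fold change of 1.73 ± 0.26 (SE, n = 2 per group, edgeR adjusted p = 0.000743) and DIN10 of 1.52 ± 0.27 (adjusted p = 0.00231). DIN9 at 1.25 ± 0.40 (adjusted p = 0.0592) and ASN1 at 1.02 ± 0.66 (adjusted p = 0.374) did not pass. The other 4 members lay between 0.41 ± 0.34 for SEN1 and 0.74 ± 0.28 for AT3G15450, and 5 of 8 members had an unadjusted p under 0.05. Of all 19436 genes tested, 4982 had an unadjusted p under 0.05 in this response. The members' median was 0.88, against 0.01 for all genes. Without the ST_FR dark library of Col-0 total RNA, ERD5 remained as the 1 member called and SEN1 turned to -0.0041. Without the ST_FR submerged library, DIN9 was called as well and ASN1 turned to -0.26.

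Col-0 polysome RNA had 5 of 8 members higher, where 6.33% of all genes tested were. DIN10 rose by a log2 fold change of 1.69 ± 0.27 (edgeR adjusted p = 0.00128) and ERD5 by 1.59 ± 0.27 (adjusted p = 0.0017). DIN9 at 1.80 ± 0.52 (adjusted p = 0.0409), BGLU30 at 1.64 ± 0.39 (adjusted p = 0.0146) and AT3G15450 at 1.06 ± 0.28 (adjusted p = 0.0263) also rose. ASN1, SEN1 and SIP2 did not pass, at 0.84 ± 0.66, 0.62 ± 0.34 and 0.60 ± 0.24. Leaving out either ST_FR library, the dark one of which was rich in ribosomal RNA, kept DIN10, BGLU30 and ERD5 (3 members), and leaving out either LTF_GG library kept DIN10 and ERD5 (2 members).

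K48M polysome RNA had 7 of 8 members higher, where 7.58% of all genes tested were. ERD5 rose by 2.19 ± 0.27 (edgeR adjusted p = 0.000136), DIN9 by 2.07 ± 0.47 (adjusted p = 0.011), DIN10 by 1.68 ± 0.27 (adjusted p = 0.00118) and BGLU30 by 1.66 ± 0.36 (adjusted p = 0.00818) on the log2 scale. SEN1 at 1.20 ± 0.35 (adjusted p = 0.0346), AT3G15450 at 1.004 ± 0.28 (adjusted p = 0.0289) and SIP2 at 0.96 ± 0.24 (adjusted p = 0.0187) rose less. ASN1, at 1.94 ± 0.68, missed the threshold (adjusted p = 0.0767), although all 8 members had an unadjusted p under 0.05. So did 5387 of all 19436 genes tested. With 1 library left out the count was 4 without either ST_FR library, 2 without the LTF_GG dark library (DIN10 and ERD5) and 6 without the LTF_GG submerged one, where ASN1 was among those called.

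K48M total RNA rests on the ST_FR pair alone once the conflicting pair is set aside, and its lone libraries borrow their spread from the remaining groups. In it 3 of 8 members rose, where 3.34% of all genes tested were called higher: ERD5 at 2.06 ± 0.37 (edgeR adjusted p = 0.00645), DIN10 at 1.85 ± 0.39 (adjusted p = 0.0138) and AT3G15450 at 1.49 ± 0.40 (adjusted p = 0.0467). ASN1 had the highest value but also the widest error, 2.36 ± 0.95 (adjusted p = 0.184). With all 16 libraries placed by header, 3 members were again called, ERD5 at 2.00 (adjusted p = 0.000839), DIN10 at 1.49 (adjusted p = 0.0169) and DIN9 at 1.66 (adjusted p = 0.0278), and AT3G15450 was at 0.88 (adjusted p = 0.195). With the same libraries placed by title, 0 members were called in any of the 4 responses. In that placement the conflicting library titled as control held ADH1 at 1323 CPM and the one titled as submerged 29.6 CPM.

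**Figure D2:**
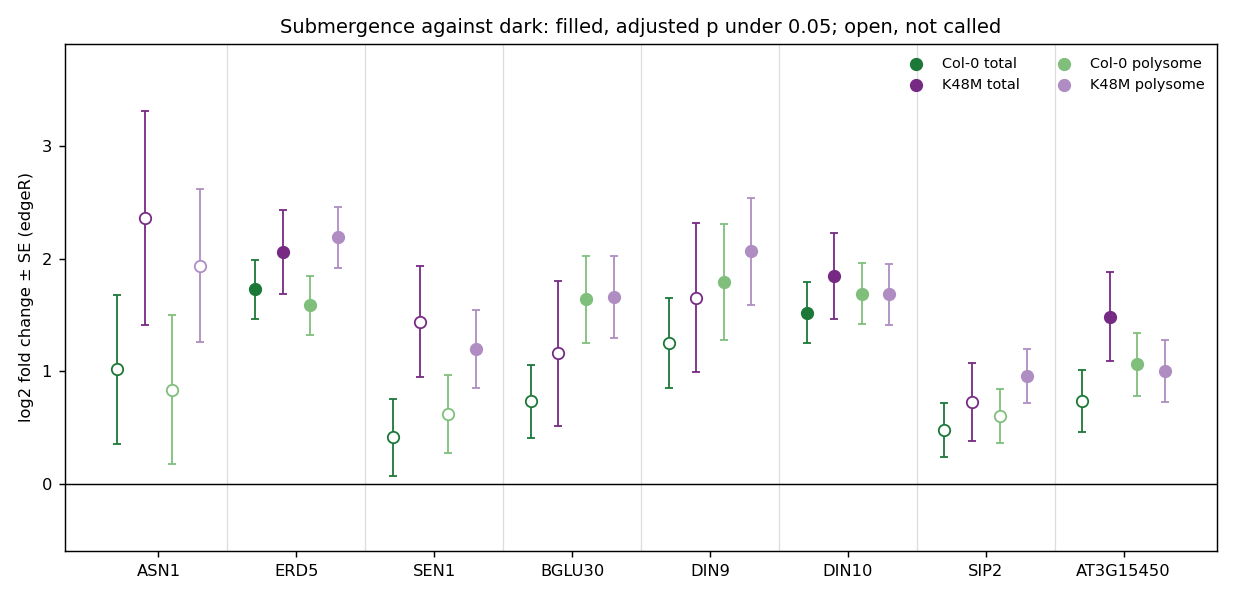
log2 fold change of submerged against dark for each member in Col-0 and K48M total and polysome RNA, with SE bars computed from edgeR's F statistic. Filled points had an adjusted p under 0.05. Every point is above 0, and ERD5 and DIN10 are filled in all 4 responses.

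The members also differed between the library sets. In a fit that let the response differ between sets, chosen after single libraries had been seen, 7 of 8 members were higher in LTF_GG than in ST_FR in the dark, where 6.29% of all genes tested were higher and 8.81% lower. ASN1 stood 3.55 ± 0.27 log2 units higher (edgeR adjusted p = 1.14e-05), SIP2 2.55 ± 0.19 (adjusted p = 1.14e-05) and ERD5 2.30 ± 0.19 (adjusted p = 1.52e-05). DIN10 was 1.57 ± 0.19, AT3G15450 1.56 ± 0.20, BGLU30 1.36 ± 0.35 and SEN1 0.89 ± 0.20 higher, with adjusted p between 0.000305 and 0.0213. DIN9, at 0.62 ± 0.45, was not called (adjusted p = 0.38). By the submitters' description each set is 1 biological repeat. These p-values and errors therefore measure the spread among genotypes and fractions within the sets, not the spread between repeats. The count was 5 to 7 when 1 library was left out, and ASN1, DIN10, AT3G15450, ERD5 and SIP2 were called in each of those fits. With unique reads alone, which are few for DIN10 and SIP2, 5 members were called: DIN10 at 1.74 (adjusted p = 0.132) and SEN1 at 0.55 (adjusted p = 0.116) were not, and SIP2 stood at 4.42. Of 7 shoot markers (photosynthesis genes), 4 were lower in LTF_GG in the dark. Summed over all 7, their level was 19801 to 29458 CPM in dark LTF_GG libraries of the fit and 36394 to 54402 CPM in dark ST_FR ones. With submerged libraries included, that sum was 15827 to 29458 CPM in 6 LTF_GG libraries and 22294 to 54402 CPM in 8 ST_FR libraries. In the conflicting LTF_GG pair it was, by header, 72780 CPM in the dark and 53682 CPM submerged. Of 10 root markers, 0 were called by edgeR, with 3 at an unadjusted p under 0.05 upward and 1 downward. Of all 19436 genes tested, 5852 had an unadjusted p under 0.05. Summed, the root markers were at 199 to 391 CPM in LTF_GG and 151 to 279 CPM in ST_FR libraries of the fit. IRT1 was at 0 reads in some libraries. The part of tissue makeup in the set difference was not tested.

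Within ST_FR, submerged exceeded dark in 32 of 32 pairs of a member and a group, with a median log2 ratio of 1.51. Within LTF_GG this held for 29 of 32 pairs, or 21 of 24 without the conflicting pair, with a median of 0.93. The exceptions were ASN1 in Col-0 total and polysome RNA and SEN1 in Col-0 total RNA. These counts were made for the members only, so no share over all genes stands beside them. Pairs within a set are not independent repeats. ASN1 was 4.33 to 10.04 times higher submerged in ST_FR but 0.732 to 2.01 times its dark level in LTF_GG. The difference of its responses, LTF_GG minus ST_FR, was -2.52 ± 0.35 on the log2 scale (edgeR adjusted p = 0.025), and it was the 1 member called in a comparison that called 0.0309% of all genes (lower: 0.0206%). That call was lost without the ST_FR dark library of Col-0 total RNA (adjusted p = 0.0649) and without any 1 of the 4 dark polysome libraries (adjusted p 0.178 to 0.258), although the value stayed at -2.25 or beyond. SEN1 at -1.05 ± 0.28 did not pass (adjusted p = 0.348), nor did ERD5 at -0.63 ± 0.25, AT3G15450 at -0.59 ± 0.28, DIN10 at -0.57 ± 0.27 or SIP2 at -0.45 ± 0.25. BGLU30 and DIN9 had values of the other sign, 0.24 ± 0.48 and 0.65 ± 0.57. The p-values of this comparison, too, measure spread among genotypes and fractions, since each set is 1 repeat.

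**Figure D3:**
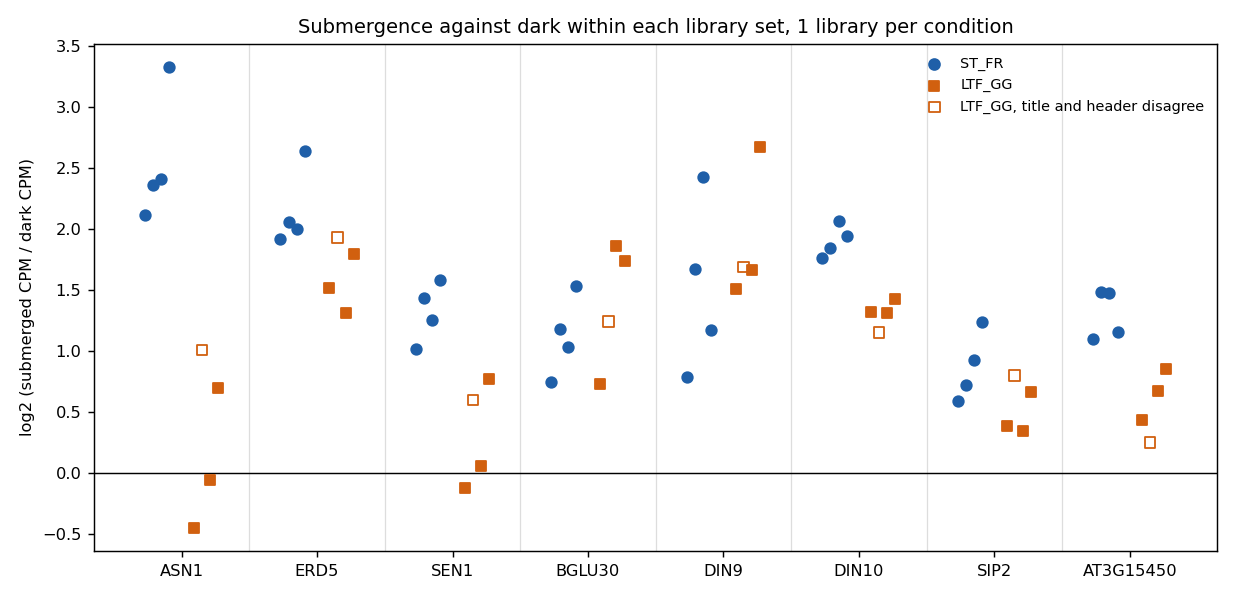
log2 ratio of submerged to dark CPM for each member within ST_FR (circles) and LTF_GG (squares), 1 point per genotype and fraction. Open squares are the K48M total RNA pair placed by header. The ST_FR points of ASN1 lie between 2.12 and 3.33 and its LTF_GG points between -0.45 and 1.01. The points of the sets do not overlap for SEN1, DIN10 and AT3G15450 either, whereas those of SIP2, BGLU30 and DIN9 do. Those of ERD5 overlap only through the open square: its filled LTF_GG points end at 1.79 and its ST_FR points begin at 1.92. The share of all genes without overlap was not computed.

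K48M was compared with Col-0 in the dark to ask whether the kinase-dead form altered the starting level. None of the 8 members was called in total or in polysome RNA, by edgeR or DESeq2, and in the 14-library fit 0 had an unadjusted p under 0.05; in each comparison 0.00515% of genes were called by edgeR, which was KIN10 itself. The values were broad: SEN1 was -0.91 ± 0.45 in total RNA and -0.25 ± 0.34 in polysomes, BGLU30 -1.06 ± 0.58 and 0.23 ± 0.44, ASN1 -0.74 ± 0.85 and -0.80 ± 0.65, and ERD5 0.19 ± 0.32 and -0.52 ± 0.26. In total RNA, K48M had 1 dark library, of ST_FR, set against Col-0 libraries of both sets. Within ST_FR alone, K48M and Col-0 held 342 and 471 CPM of SEN1 and 0.813 and 1.66 CPM of BGLU30. For ASN1 these were 49.0 and 58.6 CPM, and for ERD5 71.4 and 61.4 CPM. The difference of the submergence responses, K48M minus Col-0, was called for no member and for 0% of genes in either fraction, with 505 genes in total and 255 in polysome RNA at an unadjusted p under 0.05 and 1 and 0 genes called by DESeq2. In total RNA it ranged from 0.25 ± 0.42 for SIP2 to 1.34 ± 1.13 for ASN1. With all 16 libraries by header, 0 members were called in these total RNA comparisons, and BGLU30 had the largest dark difference, -0.86 ± 0.40 (edgeR unadjusted p = 0.0451, adjusted p = 0.391), while the difference of responses lay between -0.03 ± 0.50 for DIN10 and 0.75 ± 0.92 for ASN1. By title 0 members were called as well, but all 8 differences of responses were negative, down to -1.46 ± 0.90 for ERD5, and ERD5 was 1.21 ± 0.63 in the dark. In the 14-library fit the K48M value comes from ST_FR only, and within that set the ASN1 log2 ratio was 2.12 in Col-0 and 2.36 in K48M. In polysomes it ranged from -0.06 ± 0.39 for AT3G15450 to 1.10 ± 0.91 for ASN1. A missed threshold does not show that the genotypes act alike.

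Polysome and total RNA of Col-0 were compared as a measure of ribosome loading, on a scale that sets the shift shared by most mRNAs to 0. No member passed the test, where 2.38% of genes were called in the dark and 2.39% under water. SEN1 came closest, at 1.13 ± 0.34 in the dark (edgeR adjusted p = 0.0982) and 1.34 ± 0.35 submerged (adjusted p = 0.0584), and all 4 of its Col-0 polysome libraries lay above all 4 of its Col-0 total RNA libraries. DESeq2 called it in both states (adjusted p = 0.0115 and 0.00177). AT3G15450 was at 0.42 ± 0.28 and 0.74 ± 0.28, DIN10 at 0.20 ± 0.27 and 0.37 ± 0.26, and SIP2 at 0.22 ± 0.24 and 0.34 ± 0.24. The sign of DIN10 and SIP2 depended on the reads counted: with unique reads DIN10 was at -1.796 and -2.03 (adjusted p = 0.222 and 0.0588) and SIP2 at -0.24 and -0.41. ERD5 had negative values, -0.36 ± 0.26 and -0.51 ± 0.25, as did DIN9, at -0.96 ± 0.54 and -0.41 ± 0.38. ASN1, at -0.27 ± 0.64 and -0.45 ± 0.64, turned with single libraries: in the dark it was 0.45 without the ST_FR polysome and 0.35 without the LTF_GG total library, and submerged 0.90 without the ST_FR total library. BGLU30 was at -0.78 ± 0.40 and 0.12 ± 0.31. The change of loading under submergence was called for 0% of genes in either genotype by edgeR and for 0 genes by DESeq2, with 290 and 575 genes at an unadjusted p under 0.05. Among members it ran from -0.18 ± 0.90 (ASN1) to 0.91 ± 0.51 (BGLU30) in Col-0 and from -0.48 ± 0.48 (AT3G15450) to 0.50 ± 0.79 (BGLU30) in K48M. With the conflicting pair by header the K48M range was 0.13 ± 0.55 (AT3G15450) to 0.49 ± 0.56 (BGLU30), and by title 0.37 ± 0.62 (AT3G15450) to 2.18 ± 0.93 (DIN9), with 0 genes called by either.

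**Figure D4:**
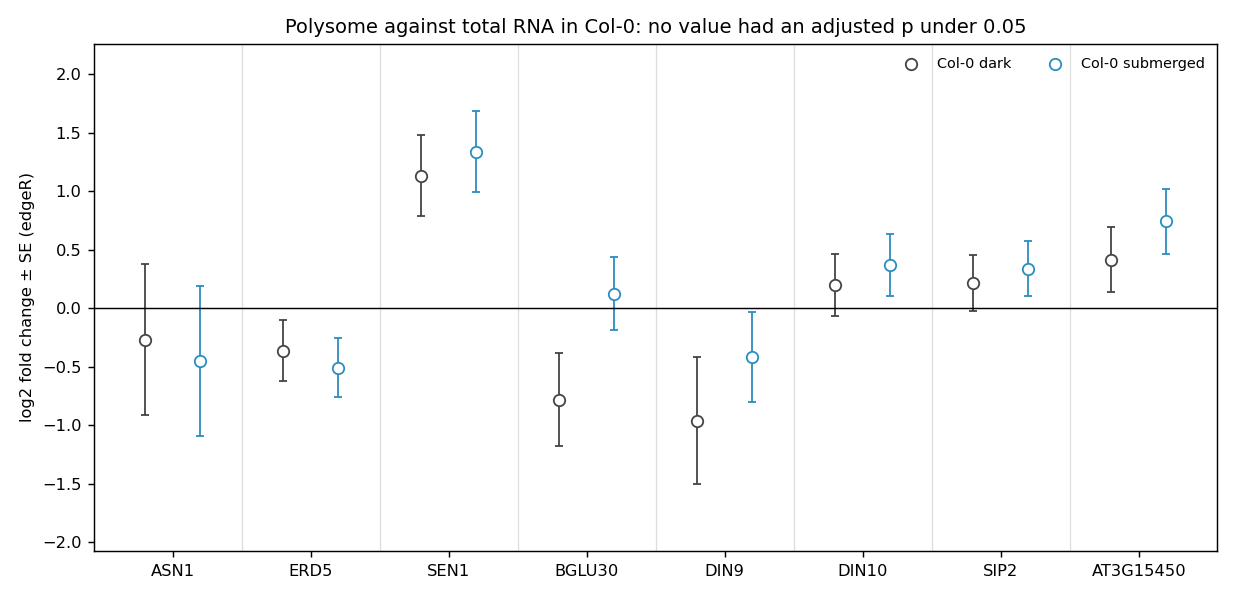
log2 fold change of polysome against total RNA in Col-0, dark and submerged, with SE bars computed from edgeR's F statistic. All points are open because none had an adjusted p under 0.05. SEN1 is the highest, at 1.13 and 1.34, while the ERD5, ASN1 and DIN9 points lie below 0, those of ASN1 turning when single libraries are left out.

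Some of the other starvation genes rose too. Of 22 on the list, 11 rose in Col-0 total RNA (7.44% of all genes were called higher), 8 in K48M total RNA (3.34%), 12 in Col-0 polysomes (6.33%) and 16 in K48M polysomes (7.58%), none fell, and their medians were 0.76, 1.14, 0.93 and 1.03. Among those with the largest changes, MCCA (methylcrotonyl-CoA carboxylase) rose by 1.43 ± 0.36 in Col-0 total RNA and 2.07 ± 0.37 in K48M polysomes, and IVD (isovaleryl-CoA dehydrogenase) by 1.21 ± 0.24 and 1.78 ± 0.25 (edgeR adjusted p at most 0.0195). DIN11 rose in Col-0, by 1.61 ± 0.37 in total RNA and 1.61 ± 0.41 in polysomes, and BCAT-2, a branched-chain aminotransferase, in K48M, by 3.23 ± 0.80 and 2.50 ± 0.54. Each is given where it was among the 3 largest called changes, which is no test of a genotype difference. In polysomes the difference of responses, K48M minus Col-0, was called by edgeR for 0 of the 22. In the dark, 15 of the 22 were higher in LTF_GG than in ST_FR and none lower, where 6.29% of all genes tested were higher and 8.81% lower. This list was drawn up with results of these data known, so its direction is not independent evidence.

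Most close relatives of the members were not called. Of 17 family copies, 16 were tested, with 3 higher and 2 lower in Col-0 total RNA (7.44% of all genes higher and 4.59% lower), 4 higher in Col-0 polysomes (6.33%), 3 higher in K48M total RNA (3.34%) and 3 in K48M polysomes (7.58%), and none lower there. AT2G17850, a rhodanese-like relative of SEN1, rose by 6.01 ± 0.46 and AT4G27450, a relative of AT3G15450, by 4.20 ± 0.26 in Col-0 total RNA (edgeR adjusted p = 2.97e-06 and 5.84e-07). AILP1, of the same family, rose by 1.76 ± 0.30 there, and STS, of the raffinose synthase family, by 3.36 ± 1.003 in Col-0 polysomes (adjusted p = 0.0479). ASN2, another asparagine synthetase, fell by 0.71 in Col-0 total RNA (log2, adjusted p = 0.0323), and the beta-glucosidase BGLU16 fell by 0.68 (adjusted p = 0.0293).

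Of 6 partner enzymes of proline and asparagine metabolism, 1 rose in each response, where 3.34% to 7.58% of all genes tested were called higher. It was P5CS2, of proline synthesis, at 0.77 ± 0.19 in Col-0 total RNA and 1.01 ± 0.20 in K48M polysomes (edgeR adjusted p = 0.0198 and 0.00446). The asparaginase ASPGA1 fell by 0.73 in K48M polysomes (log2, adjusted p = 0.0244), where 6.04% of all genes were called lower. Of 9 bZIP factors of groups C and S1, 3 rose in each total RNA response (all genes: 7.44% in Col-0, 3.34% in K48M). In each polysome response 4 rose (all genes: 6.33% in Col-0, 7.58% in K48M). BZO2H3, of group C, rose in all 4, from 0.96 ± 0.20 in Col-0 total RNA to 1.34 ± 0.29 in K48M total RNA. bZIP1, of group S1, rose by 0.92 ± 0.21 in Col-0 and 0.89 ± 0.20 in K48M polysomes; it is also on the list of 22 starvation genes. None of the 9 ATG8 autophagy genes was called in any of the 4 responses, with medians between -0.003 and 0.25. With 3.34% to 7.58% of all genes called higher, a list of 9 is too short for 0 calls to set it apart.

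Across the 14 libraries of the fit, the members did not follow one course. The root mean square difference between centred log2 CPM profiles was smallest for DIN10 and AT3G15450, at 0.386, and largest for ASN1 and SEN1, at 1.32. From the members' median profile, DIN10 differed by 0.251 and SEN1 by 0.827. The non-members nearest to that median profile were AT1G25400 at 0.239, BCE2 (DIN3, a subunit of the branched-chain keto acid dehydrogenase) at 0.288, AT1G21400 at 0.335, OSM34 at 0.342 and MIOX2 at 0.349, where the median of 19428 genes was 1.11.

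Fold changes for the lines with altered eIFiso4G1 come from the authors' deposited table, which lists transcript models and holds 13 models of 7 members, with no row for ASN1. By the sample titles, K48M belongs to the first experiment and i4g1-2 and 4A-15 to the second, each experiment with its own Col-0. Which Col-0 samples the Col-0 columns rest on was not established here. For the model with most reads of each member, the total RNA values in the authors' deposited table were above 0 for 7 of 7 members in Col-0, K48M, i4g1-2 and 4A-15, with medians of 1.19, 1.37, 1.20 and 1.03 on the log2 scale. Of all 8391 models listed in the authors' deposited table, 45.7%, 46.8%, 47.0% and 47.4% were above 0 in these columns. No test was run on these values here. ERD5 was 1.38, 2.01, 1.80 and 1.72 in these lines in the authors' deposited table, and SEN1 was 0.35, 1.01, 0.29 and 0.12. In its polysome columns the authors' deposited table had values above 0 for 7 of 7 members in Col-0, 5 in K48M, 6 in i4g1-2 and 6 in 4A-15, with medians of 1.21, 0.52, 0.54 and 0.74. Over all 13 models, the polysome values in the authors' deposited table were above 0 for 13, 8, 10 and 8 models, with medians of 1.21, 0.07, 0.54 and 0.14. Of all models listed in the authors' deposited table, 43.0%, 14.2%, 27.4% and 25.5% were above 0 in the polysome columns. Those columns are centred differently: over 8391 models listed, the authors' deposited table has a median of -0.29 in Col-0, -1.51 in K48M, -0.94 in i4g1-2 and -1.01 in 4A-15 polysomes, against -0.13 to -0.06 in the total RNA columns. The model with most reads lay above the median of its column for each of the 7 members in the authors' deposited table, but over all 13 models 5 of 104 values lay below it, such as -3.24 for the DIN10 model AT5G20250.3 in K48M polysomes and -1.69 for AT3G15450.3 in i4g1-2 total RNA. Those models had little support of their own in the 16 libraries with counts. AT3G15450.3 held 27 reads, and AT5G20250.3 held 59 unique reads of 16400. ERD5 in K48M polysomes was 0.85 in the authors' deposited table and 2.19 ± 0.27 in the edgeR fit to the counts, where the median of all genes was -0.01. How the authors' columns were scaled is not given in the sources used here.

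**Figure D5:**
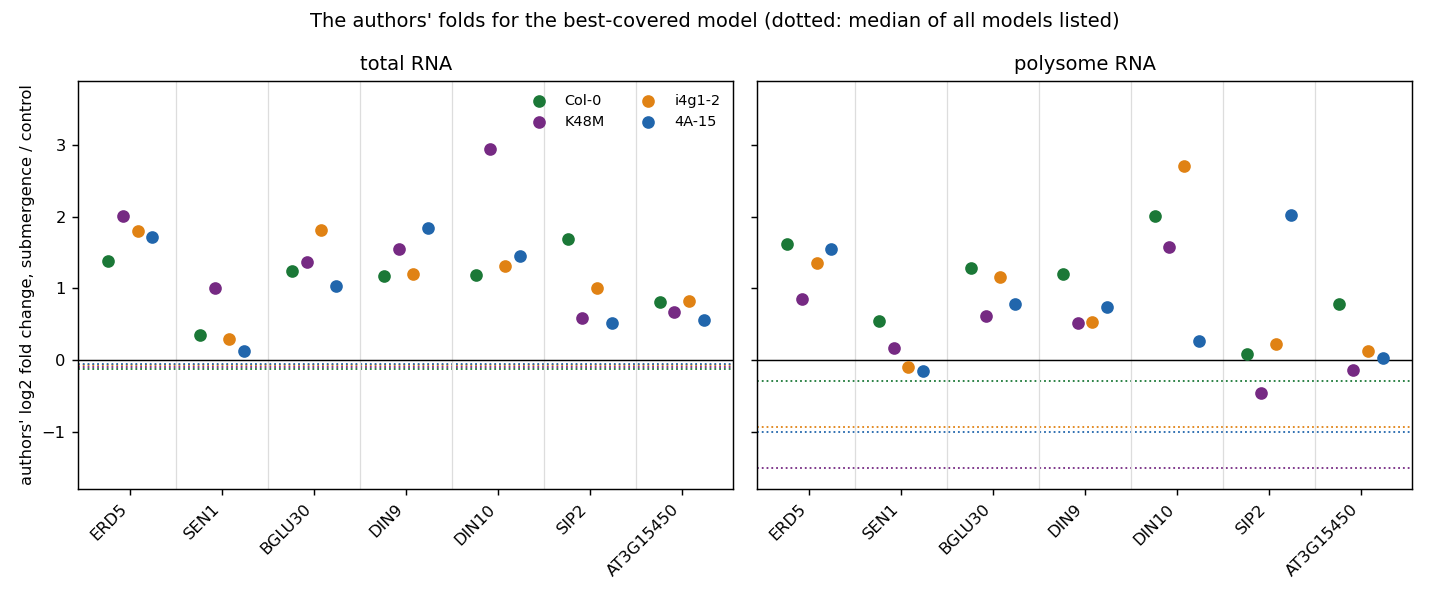
Log2 fold changes of submergence against control in the authors' deposited table, for the best-covered model of 7 members, in total RNA (left) and polysome RNA (right). Colours are lines and dotted lines the median of all models listed in a column. In total RNA all points are above 0, and in polysomes the dotted lines range from -0.29 (Col-0) to -1.51 (K48M).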

How the data were processed

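Per the labels' protocols, cDNA of total RNA and of heavy polysome-bound RNA was sequenced on an Illumina HiSeq2000. The authors' deposited tables give counts of total gene reads per transcript model, and the submitters' processing notes name TAIR 10. No aligner is named in the sources used here. The authors deposited log2 fold changes with a p-value for models of both experiments, and these were used as given. Counts of the second experiment (24 samples) were not analysed here.

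Counts of 41660 models were summed to 33592 loci, of which 32825 matched the reference annotation. The deposited counts include reads shared between models: unique reads made up 54.4% to 73.0% of gene reads per library, but 0.438% for DIN10, 1.33% for SIP2 and 14.7% for ASN1. Rows without an identifier (11) held at most 0.00839% of reads and were left out. Of 16 libraries, 14 entered 1 fit in edgeR 4.0.16 (R 4.3.3): TMM factors (0.561 to 1.31), filterByExpr (minimum count 10), 1 term per group plus the library set as replicate block, quasi-likelihood tests with 5 residual degrees of freedom among samples, and Benjamini-Hochberg adjustment over 19436 genes, called under 0.05. The biological coefficient of variation was 18.8%. The block follows the labels' replicates: deviations of same-numbered libraries correlated at r = 0.316 to 0.624 in 15 of 15 pairs of groups. A second fit added a set by submergence term (4 residual degrees of freedom) and was chosen after the data were seen. DESeq2 1.42.0, other scaling, filtering, read and library choices were alternatives. Scripts were tested on simulated data. Figures were drawn with matplotlib 3.10.9.

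Named were the members in every comparison, of each other list up to 3 called genes of largest absolute change per response, and the 5 genes nearest to the members' median profile. ASN2 and BGLU16 were named after their values were seen. The members and lists were chosen with earlier results of these data known. Errors rest on 2 libraries per group, and on 1 in K48M total RNA, where the spread comes from the other groups. Sequences are from RefSeq (TAIR10.1), in which all 8 members were matched.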

Additional observations from a re-analysis of the deposited data

Results flagged for a closer look

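ASN1 responded differently in the library sets: in the fit with a set by submergence term, the response in LTF_GG minus that in ST_FR was -2.52 ± 0.35 on the log2 scale (edgeR adjusted p = 0.025). Submerged ASN1 was above dark in 4 of 4 ST_FR pairs and in 2 of 4 LTF_GG pairs. The value lay between -3.04 and -2.22 under the alternatives, with adjusted p from 8.8e-09 with DESeq2 to 0.258 without the ST_FR polysome library of dark Col-0, so the call did not hold in all of them.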

How the results depend on the processing

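Without the replicate block, the Col-0 responses called 467 (total) and 365 (polysome) genes and the K48M responses 54 and 507, with 0 members called in each and 0 genes for polysome against total in either state. With 16 libraries by header, the 4 responses called 1475, 1653, 1212 and 1567 genes, polysome against total 2 (dark) and 35 (submerged), and the dark set difference 789 genes, while the difference of responses between sets called 0 members. By title, the 4 responses and polysome against total called 0 genes and 0 members, the set difference 418 genes, and the difference between sets 1 gene and 0 members. By title, BGLU30 and DIN9 also reversed, to -0.32 and -0.16 in K48M total RNA and to -0.40 and -0.48 for the difference between sets. By title, the conflicting library named as control held ADH1 at 1323 CPM and the one named as submerged 29.6 CPM. In the libraries of the fit, ADH1 was 26.8 to 48.8 CPM in the dark and 1328 to 2723 CPM under water. The cause of the lost calls and reversals was not tested.

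DESeq2 called 3 members in Col-0 polysomes, 862 and 856 genes and 1 member (SEN1) each for polysome against total, dark and submerged, 14 genes for K48M against Col-0 in dark total RNA, 1 gene for the K48M difference in total RNA, and 48 genes and 2 members (ASN1 and SEN1) for the difference between sets. Unique reads called 1 member in Col-0 total RNA, 0 genes for K48M against Col-0 in each fraction, 749 genes and 1 member (SEN1) for submerged polysome against total, and 2 genes and 0 members for the difference between sets. With them SIP2 in K48M total RNA was -0.17 and DIN10 for the difference between sets 0.18, both reversed, and for polysome against total DIN10 reversed to -1.796 (dark) and -2.03 (submerged) and SIP2 to -0.24 and -0.41. For the dark set difference they lost the calls of DIN10 and SEN1. Without a filter, SEN1 was 1 member called for polysome against total in each state, with 843 genes submerged, and 49 genes differed between sets. Leaving out ribosomal RNA and organelle genes called SEN1 (1 member) for submerged polysome against total and 15 genes for the difference between sets.

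Leaving out 1 library at a time gave 957 to 3010 genes and 1 to 3 members in Col-0 total RNA, 712 to 1178 genes and 2 to 3 members in Col-0 polysomes, and 908 to 1394 genes and 2 to 6 members in K48M polysomes. It gave 0 to 500 genes (dark) and 0 to 3076 genes (submerged) for polysome against total, 0 to 1 gene for the change of loading in Col-0, 663 to 4500 genes for the set difference, and 0 to 130 genes and 0 to 1 members for the difference between sets. In Col-0 total RNA ASN1 ranged from -0.26 (without the ST_FR submerged library) to 1.86, and SEN1 from -0.0041 (without the ST_FR dark library) to 0.91. No K48M total library could be left out, since 1 per condition remained. RLE scaling changed no member's call. For polysome against total, leaving out 1 library also turned DIN10 to -0.08 and SIP2 to -0.03 in the dark, BGLU30 to -0.04 submerged, and ASN1 as given above. DIN9 and BGLU30 rest on 1 to 70 reads per library.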
